A study of Mus musculus with 109 samples.

Results

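Neutrophil genes were examined in mouse retinas after an injection into the eye. The set holds 9 of the 37315 genes in the count table, taken as the rows of their Ensembl identifiers: S100a8, S100a9, Retnlg, Cxcr2, Csf3r, Mmp8, Mmp9, Trem1 and Clec4d. RNA of 109 whole retinas from 64 mice was sequenced, with 54 retinas from females and 55 from males. The mice were C57BL/6J, called wild type (WT) here, or lacked Sarm1 (Sarm1-/-, Sarm.KO in the labels), a gene that drives axon degeneration, and they were 2 to 4 months old by the design text, with a wider range in the study's methods. Every retina came from an eye injected intravitreally, and the only controls were eyes injected with PBS, the diluent of the cytokines. In 45 mice both eyes were sequenced, most often a cytokine eye and its PBS partner, and the authors left out eyes with lens damage.

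In batch 1, all WT, 31 retinas were taken 2 days after PBS, 8 after TNF, 9 after IL1A (IL1 in the labels) and 10 after IL1A+TNF. Also in batch 1, 7 retinas were taken 14 days after PBS and 6 after TNF, and 6 were taken 35 days after PBS and 9 after TNF. In batch 2, at day 2, the WT groups had 5 PBS and 6 IL1A+TNF retinas, and the Sarm1-/- groups had 6 and 6. The batches are those the labels give. IL1A was given alone only at day 2 and to no Sarm1-/- mouse, and no uninjected retina was analysed here.

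Neutrophils are short-lived white blood cells that leave the blood at sites of injury, crossing vessel walls along gradients of CXCR2 ligands. They carry stores of granule proteins and the calcium-binding pair S100A8 and S100A9, and their production and survival depend on granulocyte colony-stimulating factor. A healthy retina, behind its blood barrier, holds very few of them. None of the 9 genes belongs to neutrophils alone: monocytes also transcribe S100a8, S100a9, Trem1 and Clec4d, and Mmp9 is made by many cells.

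The 9 genes lie on 8 chromosomes of build GRCm38 (mm10), and all are annotated as protein coding. S100a8 (ENSMUSG00000056054; chromosome 3, 90668978 to 90670035, plus strand) and S100a9 (ENSMUSG00000056071; chromosome 3, 90692632 to 90695721, minus strand) are 22.6 kb apart. The receptor genes are Cxcr2 (ENSMUSG00000026180; chromosome 1, 74153989 to 74161246), Csf3r (ENSMUSG00000028859; chromosome 4, 126024550 to 126044440), Trem1 (ENSMUSG00000042265; chromosome 17, 48232768 to 48246924) and Clec4d (ENSMUSG00000030144; chromosome 6, 123262111 to 123275265). The secreted products are encoded by Mmp8 (ENSMUSG00000005800; chromosome 9, 7558456 to 7568485), Mmp9 (ENSMUSG00000017737; chromosome 2, 164940780 to 164955850) and Retnlg (ENSMUSG00000022651; chromosome 16, 48872621 to 48874496). Trem1 overlaps a pseudogene on the other strand, AC241601.2, and without strand in the counting their reads could not be told apart.

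Promoter windows, 250 bases before to 50 after the start in RefSeq (GRCm38.p6), were matched for 8 of the 9 genes, and Mmp9 had no entry. The RefSeq starts are not all the same as the gene starts given above. The windows of 4 genes are printed, those with the highest fitted differences between IL1A+TNF and PBS retinas of day 2. Capitals mark GAGGAA and its reverse complement, a core letter string of PU.1 sites, and TATAAA, the TATA box. Both strings were searched on both strands. The first occurred in 6 of the 8 windows and in 28.28% of all 32851 promoters. The second occurred in 3 of the 8, on the strand of the gene for S100a8 and S100a9 and on the other strand for Mmp8, and in 13.62% of all promoters. The windows are chr3:90668821-90669120 (plus strand) for S100a8, chr3:90695672-90695971 (minus strand) for S100a9, chr1:74153744-74154043 (plus strand) for Cxcr2 and chr4:126024409-126024708 (plus strand) for Csf3r.

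S100a8: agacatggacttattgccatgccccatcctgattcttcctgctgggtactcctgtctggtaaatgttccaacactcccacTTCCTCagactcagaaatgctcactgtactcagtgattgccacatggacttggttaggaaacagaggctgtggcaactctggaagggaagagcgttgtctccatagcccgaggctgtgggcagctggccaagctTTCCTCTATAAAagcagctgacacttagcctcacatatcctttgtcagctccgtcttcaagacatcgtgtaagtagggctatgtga

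S100a9: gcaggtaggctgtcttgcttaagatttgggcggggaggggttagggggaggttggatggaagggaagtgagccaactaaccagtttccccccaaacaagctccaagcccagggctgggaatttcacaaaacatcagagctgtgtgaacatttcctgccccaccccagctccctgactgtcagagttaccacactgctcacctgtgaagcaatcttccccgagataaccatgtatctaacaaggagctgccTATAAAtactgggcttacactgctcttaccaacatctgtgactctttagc

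Cxcr2: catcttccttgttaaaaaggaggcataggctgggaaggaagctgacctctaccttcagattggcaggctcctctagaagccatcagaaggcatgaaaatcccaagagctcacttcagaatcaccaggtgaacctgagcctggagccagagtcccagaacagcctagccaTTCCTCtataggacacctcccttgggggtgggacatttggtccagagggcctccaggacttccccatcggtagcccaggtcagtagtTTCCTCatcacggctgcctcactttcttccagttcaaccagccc

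Csf3r: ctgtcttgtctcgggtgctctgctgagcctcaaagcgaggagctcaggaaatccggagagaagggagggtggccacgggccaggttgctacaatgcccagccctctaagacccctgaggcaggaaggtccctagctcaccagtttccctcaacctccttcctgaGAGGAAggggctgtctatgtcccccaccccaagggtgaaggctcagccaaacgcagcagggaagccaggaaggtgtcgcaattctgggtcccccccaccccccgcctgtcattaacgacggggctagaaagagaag

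TTGCNNAA, a core of C/EBP sites, occurred in 3 of the 8 windows (S100a9, Retnlg and Mmp8) and in 10.8% of all promoters. TGANTCA, an AP-1 core, occurred in 0 of the 8 and in 7.808% of all promoters. These matches describe letters in a window and nothing about binding.

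Total counts on genes ranged from 30014757 to 79064488, and were higher in batch 2 (from 42875980) than in most of batch 1. Levels are given in CPM, the usual depth-scaled count, with TMM-adjusted library sizes, so 1 count was worth between 0.0123 and 0.0347 CPM. Sarm1 was at 43.4 ± 5.80 CPM (SD, n = 6) in Sarm1-/- PBS retinas against 114 ± 9.06 CPM (SD, n = 5) in WT PBS retinas of the same batch, lower in the knockout though not absent. Differences are log2 fold changes from limma on voom weights, with sex as a covariate and mouse as a random block (no block for PBS retinas over time), and a gene was called at a Benjamini-Hochberg false discovery rate (FDR) under 0.05 over all genes tested. Retinas were the replicates, from separate mice within each group, except that 7 PBS retinas of day 14 came from 6 mice. No pair of retinas had counts alike within sampling noise. In whole retinas, more neutrophils and more RNA per cell cannot be told apart.

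At day 2 all 9 genes were higher in IL1A+TNF than in PBS retinas, by log2 fold changes of 1.41 (Retnlg) to 3.92 (S100a8). With mouse as a fixed block, by edgeR and by DESeq2, 8 of 9 were called, all but Retnlg. The same direction at the same threshold was called for 24.9% of the 19548 genes tested. The members' median was 3.42, against −0.02 over all genes tested. Their ranges separated fully from the 31 PBS retinas only for Csf3r and Mmp9, 2 of 9, where 2.23% of all tested genes were so separated upward.

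S100a8 and S100a9 encode the subunits of calprotectin, the most abundant protein of the neutrophil cytosol. S100a8 levels in the 10 IL1A+TNF retinas, replicates 1 to 10, were 93.2, 174.7, 18.5, 18.4, 20.1, 22.1, 25.1, 29.2, 21.3 and 44.7 CPM, against 0.0982 to 26.5 CPM (median 2.35) in the 31 PBS retinas. Replicates 1 and 2 stood far above the rest, and the highest PBS retinas reached into the range of the lower treated ones. The difference was 3.92 (SE 0.39, FDR 8.35e-13 from limma). S100a9 ran from 16.3 to 163.5 CPM (median 26.6) against 0.0970 to 36.1 CPM (median 3.25), again highest in replicate 2, and differed by 3.59 (SE 0.39, FDR 1.20e-11 from limma).

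Csf3r encodes the receptor for granulocyte colony-stimulating factor, and Cxcr2 the receptor for the chemokines that draw neutrophils out of the blood. Csf3r was at 258.6, 293.7, 64.6, 86.3, 125.8, 111.9, 101.2, 125.2, 86.9 and 173.0 CPM in IL1A+TNF replicates 1 to 10, against 1.75 to 47.8 CPM (median 8.10) in PBS retinas. Every treated retina lay above every PBS retina. The difference was 3.79 (SE 0.29, FDR 1.87e-16 from limma). Cxcr2 was at 12.6 to 109.7 CPM (median 19.9) against 0.0737 to 16.4 CPM (median 2.09), and differed by 3.78 (SE 0.39, FDR 3.53e-12 from limma). The groups overlapped at their edge, where the lowest treated retinas lay below the highest PBS retina.

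Trem1 encodes an activating receptor that amplifies inflammatory signals through the adaptor TYROBP, and Clec4d a C-type lectin that senses microbial glycolipids. Trem1 was at 3.37 to 12.4 CPM (median 5.15) in IL1A+TNF retinas against 0 to 5.29 CPM (median 0.529) in PBS retinas, a difference of 3.42 (SE 0.35, FDR 2.29e-12 from limma). Clec4d was at 2.87 to 20.7 CPM (median 7.69) against 0.0558 to 4.84 CPM (median 0.630), a difference of 3.26 (SE 0.34, FDR 5.07e-12 from limma). In both, the highest PBS retina exceeded the lowest treated one.

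The proteases divided by their starting level. Mmp9 encodes gelatinase B, and its retinas were at 175.8, 301.9, 73.9, 96.6, 94.8, 99.0, 85.0, 104.0, 65.9 and 163.7 CPM after IL1A+TNF, against 15.8 to 46.2 CPM (median 21.8) after PBS. The groups did not overlap, and the difference was 2.30 (SE 0.15, FDR 5.30e-19 from limma). Mmp8 encodes the neutrophil collagenase and was scarce in both groups, with 0.184 to 5.79 CPM (median 0.805) against 0 to 1.58 CPM (median 0.132). Its difference was 2.46 (SE 0.49, FDR 2.41e-05 from limma).

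Retnlg encodes a resistin-like protein secreted by granulocytes, and it had the smallest and least certain difference. Its 10 treated retinas held 0.0730 to 3.29 CPM (median 0.360), and the 31 PBS retinas 0 to 2.25 CPM (median 0.126), with 4 PBS retinas at a count of 0. The ranges overlapped almost completely, and the highest treated retina was again replicate 2. The difference was 1.41 (SE 0.54, FDR 0.0256 from limma), and it was 1.11 with FDR 0.103 from limma without replicate 2. The call was also lost with edgeR (0.58, FDR 0.424), with DESeq2 (0.51, FDR 0.554) and with mouse as a fixed block (0.21, FDR 0.880 from limma). The other 8 genes stayed above the threshold without replicate 1 and without replicate 2.

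**Figure D1:**
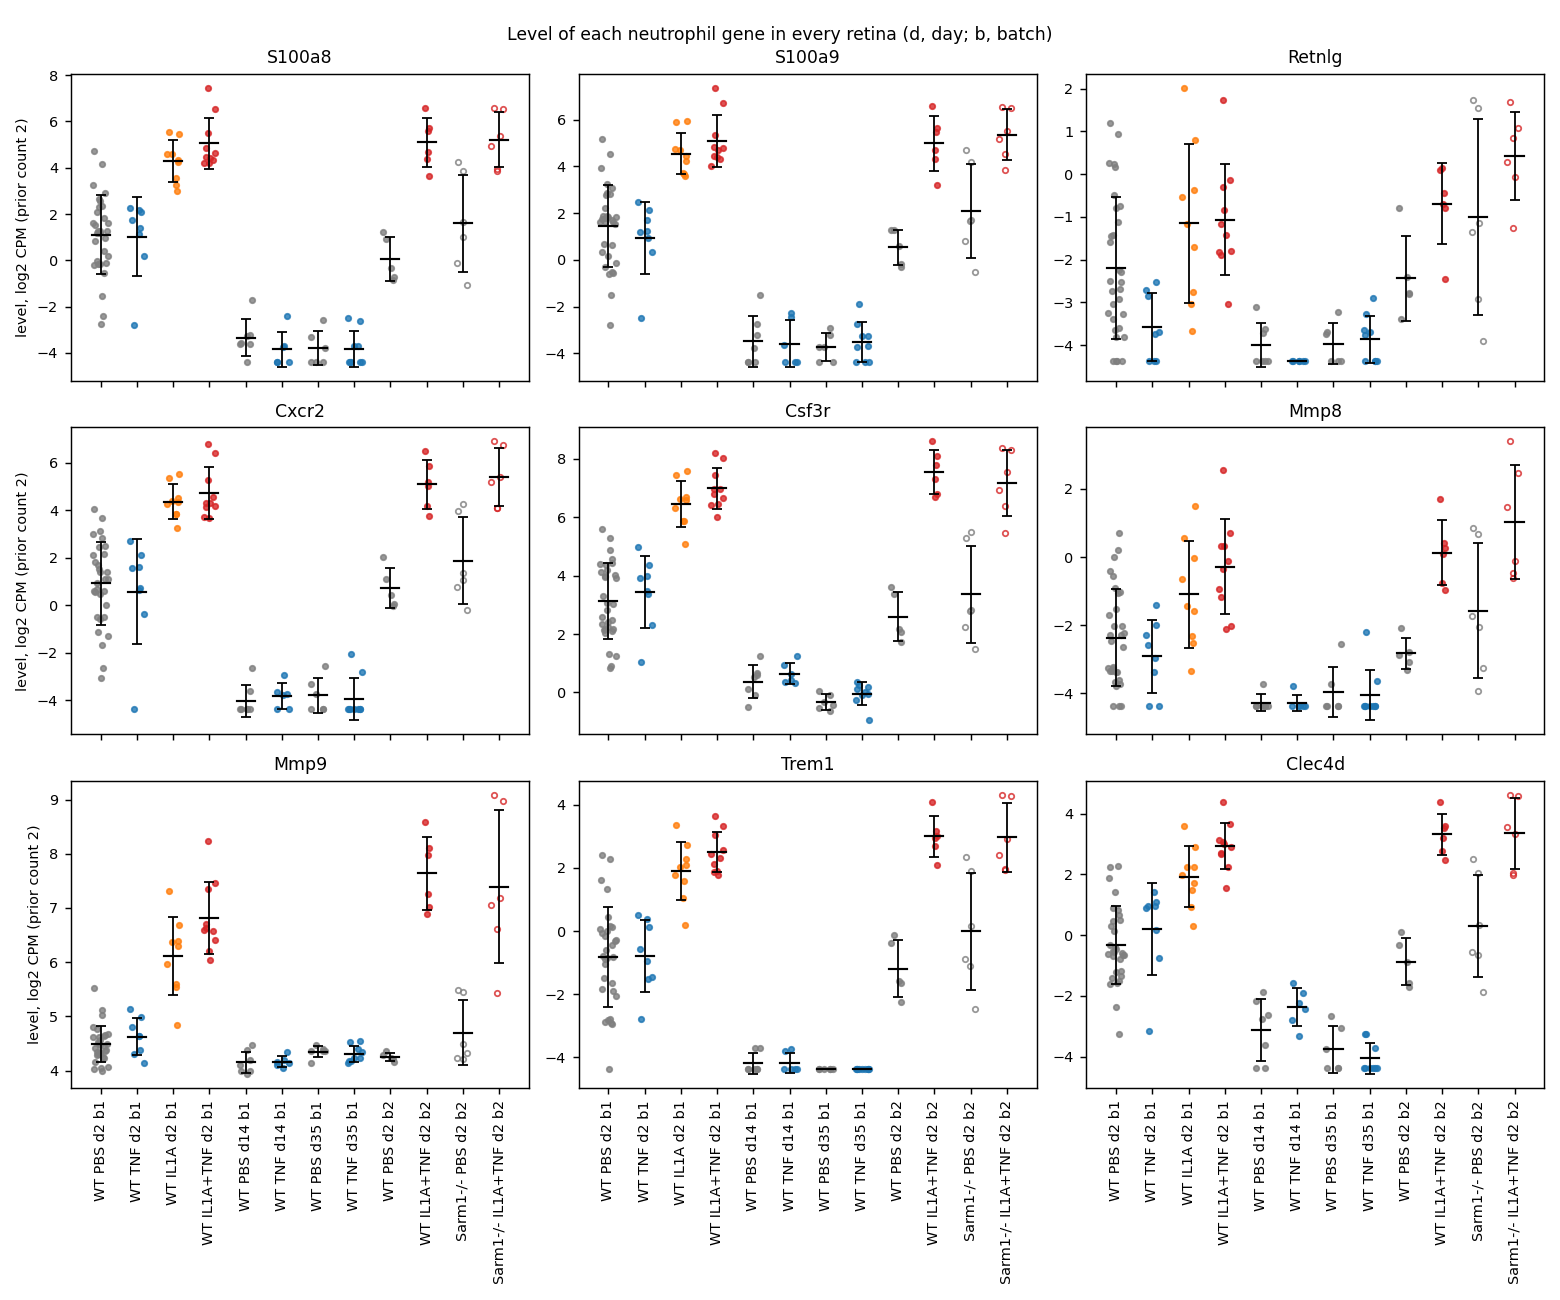
Level of each gene (log2 CPM with a prior count of 2, vertical axis) in each of 109 retinas by group (horizontal axis), with black lines for the mean and SD over retinas, filled points for WT and open points for Sarm1-/- retinas. The means of the IL1A and IL1A+TNF groups lie above the day 2 PBS mean of the same genotype and batch. Single retinas overlap for most genes, and S100a8 reaches 174.7 CPM. Retinas of days 14 and 35 lie near the floor for all genes but Csf3r and Mmp9.

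After IL1A alone at day 2 the same genes were higher than in PBS retinas, 9 of 9, where 12% of all tested genes rose. The IL1A group of 9 retinas was compared with the same 31 PBS retinas, so the result shares its controls with the one above. Log2 fold changes ran from 1.68 (Mmp9) to 3.59 (Cxcr2), with a median of 2.996 against −0.01 over all genes. None of the 9 genes was separated fully from the PBS retinas, and 0.102% of all tested genes were.

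S100a8 in the 9 IL1A retinas, replicates 1 to 9, was at 47.4, 19.9, 9.64, 11.8, 19.1, 23.8, 8.04, 43.6 and 24.5 CPM. Replicates 1 and 8 were highest for this gene and within the top 2 for all 9 genes, and replicate 7 was lowest for 7 of 9. The difference from PBS was 3.34 (SE 0.41, FDR 2.06e-09 from limma). S100a9 differed by 3.23 (FDR 4.08e-09), Csf3r by 3.38 (FDR 3.82e-13), Cxcr2 by 3.59 (FDR 2.03e-10), Trem1 by 2.996 (FDR 3.05e-09), Clec4d by 2.39 (FDR 1.50e-06) and Mmp9 by 1.68 (FDR 9.75e-13), all from limma.

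Mmp8 and Retnlg, the scarce granule genes, had wide ranges after IL1A. Retnlg was at 3.99, 0.721, 0.0742, 0.0301, 0.261, 0.397, 0.1004, 1.70 and 0.645 CPM in replicates 1 to 9, spanning the PBS range, and differed by 1.77 (SE 0.57, FDR 0.0190 from limma). Mmp8 was at 0.0494 to 2.79 CPM (median 0.322) and differed by 1.81 (SE 0.56, FDR 0.0144 from limma). Neither was called by edgeR (Retnlg FDR 0.279, Mmp8 FDR 0.0898) or by DESeq2 (Retnlg FDR 0.465, Mmp8 FDR 0.174). With mouse as a fixed block, which rests on the mice with both eyes sequenced, 5 of 9 were called: Trem1 (1.81, FDR 0.184 from limma), Clec4d (1.84, FDR 0.136 from limma), Retnlg and Mmp8 were not. Without replicate 1 Retnlg was at 1.26 (FDR 0.168) and Mmp8 at 1.57 (FDR 0.0622), and without replicate 8 they were at 1.5 (FDR 0.0957) and 1.44 (FDR 0.0967), all from limma.

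TNF alone at day 2 changed none of the 9 genes at the threshold: 0 of 9 by limma, 0 of 9 at an unadjusted p under 0.05, and 0 by edgeR. Over all tested genes 0.655% passed in either direction. DESeq2 called 1 member, Retnlg, at a log2 fold change of −3.34 (FDR 0.00919), from 14 counts in 8 TNF retinas. In the PBS eyes of the same 8 mice Retnlg was at 0 to 0.128 CPM, against 0 to 0.127 CPM in the TNF eyes. Within mice the median difference was −0.46 (range −1.18 to 1.52), so the size of the DESeq2 value rests on PBS eyes of other mice. The limma differences ran from −1.61 (Retnlg, 95% interval −3.62 to 0.41) to 0.60 (Clec4d, 95% interval −0.44 to 1.63). Intervals of this width do not show that TNF and PBS retinas were alike.

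TNF retinas spanned much of the PBS range, and 1 retina stood low. S100a8 was at 4.73, 4.50, 1.10, 3.28, 2.14, 0.0962, 4.24 and 2.60 CPM in TNF replicates 1 to 8. Replicate 6, with 3 counts, was lowest for 6 of the 9 genes, and it had 0 counts of Cxcr2. Without it, the members called were still 0, while the sign of the difference turned for 3 of 9, S100a8, S100a9 and Cxcr2. Csf3r, the best covered receptor, was at 31.8, 15.97, 4.85, 15.2, 11.1, 2.02, 20.6 and 10.3 CPM in the same order, all within the PBS range of 1.75 to 47.8 CPM. Within mice, S100a8 was higher in the TNF eye than in the PBS eye in 6 of 8 mice (median difference 1.88, range −4.90 to 4.52) and Csf3r in 7 of 8 (median 1.61, range −2.95 to 3.47).

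**Figure D2:**
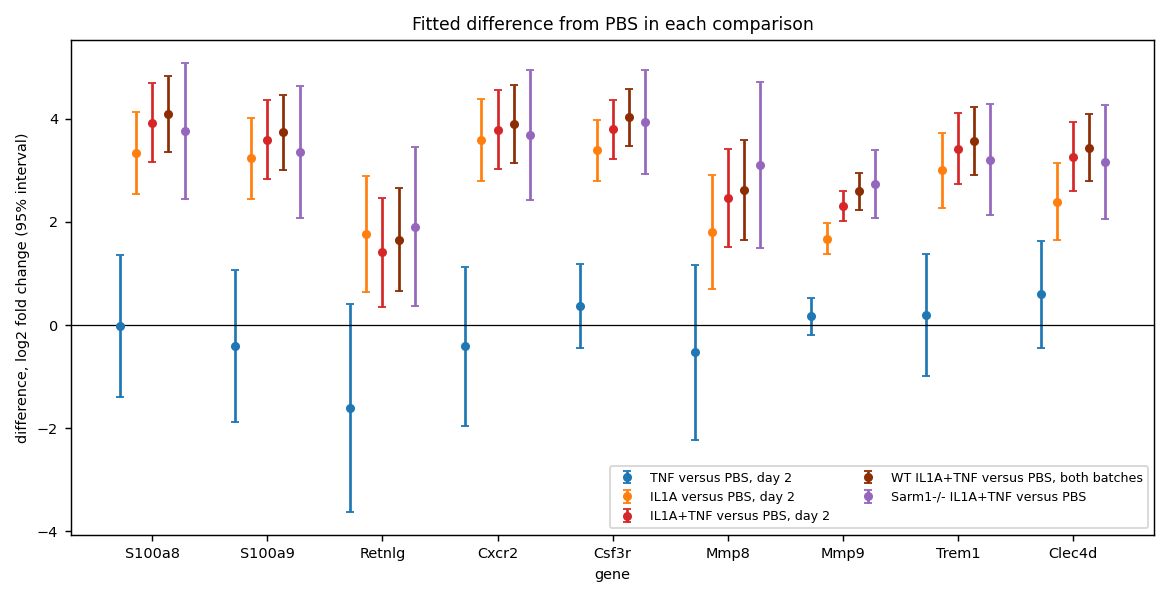
Fitted difference from PBS (log2 fold change, vertical axis) for each gene (horizontal axis) in 5 comparisons at day 2, as points with 95% intervals from limma. The TNF intervals include 0 for all 9 genes, and those of IL1A, IL1A+TNF and Sarm1-/- IL1A+TNF lie above 0, closest to it for Retnlg. Comparisons in WT mice share PBS retinas.

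IL1A+TNF and TNF retinas differed clearly, and IL1A+TNF and IL1A retinas little. Against TNF, 9 of 9 genes were higher, where 20% of all tested genes were. The differences ran from 2.13 (Mmp9) to 4.20 (Cxcr2), and 7 of 9 genes were fully separated, against 3.67% of all tested genes. With mouse as a fixed block, where each treated eye is set against the PBS eye of its mouse, 2 of 9 were called, Csf3r and Mmp9.

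Against IL1A alone, 1 of 9 genes was higher, where 5.39% of all tested genes were: Mmp9, by 0.63 (SE 0.18, FDR 0.0192 from limma). Its retinas were at 65.9 to 301.9 CPM after IL1A+TNF and 28.7 to 158.6 CPM after IL1A, so the groups overlapped, and 0 of 9 genes were fully separated, against 0.0665% of all tested genes. The differences of the other genes ran from −0.36 (Retnlg) to 0.88 (Clec4d, FDR 0.106 from limma). Without the sex term Clec4d was called as well, at 0.99 (FDR 0.0439), and with mouse as a fixed block none was. The interaction of IL1A and TNF on the log scale gave 0 of 9 by limma, edgeR and DESeq2, 0 at an unadjusted p under 0.05, where 3.60% of all tested genes passed. Its values ran from 0.04 (Csf3r) to 1.24 (Retnlg, SE 1.22).

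The 9 genes varied widely between retinas given the same treatment. Over the members, the median SD of the log2 level in the groups of day 2 ran from 0.842 (WT PBS, batch 2) to 1.86 (Sarm1-/- PBS), and it was 1.59 in the 31 WT PBS retinas of batch 1. By gene, the SD over these 31 retinas was 1.70 for S100a8, 1.74 for S100a9, 1.75 for Cxcr2, 1.66 for Retnlg, 1.59 for Trem1, 1.43 for Mmp8, 1.30 for Csf3r and 1.28 for Clec4d. The median SD over 19548 genes in the same retinas was 0.190. Retnlg and Mmp8 had median counts of 4 and 5 in these retinas, so counting error enters their SDs as well. Mmp9, at 0.33, had the smallest SD of the 9, with no PBS retina under 15.8 CPM. In linear terms S100a8 ran over a 270.2-fold range in these retinas.

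The same retinas were high for most members. Of the 31 PBS retinas at day 2, replicate 5 was highest for 7 of 9 genes, and replicate 26 was in the top 2 for 9 of 9. In the IL1A+TNF group, replicate 2 was highest for all 9 genes and replicate 1 in the top 2 for all 9. The S100a8 level correlated with each of the other 8 across the 31 PBS retinas with Pearson's r from 0.681 (Mmp8) to 0.948 (S100a9), and Spearman's rho from 0.702 (Retnlg) to 0.929 (S100a9). All 8 had an adjusted p of at most 8e-05 (permutation test, 24 relations). Without the 2 retinas farthest from the median r was 0.645 to 0.971.

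In the 9 IL1A retinas r was 0.911 to 0.972, each with an adjusted p of at most 0.00112 by an exact permutation test, rho was 0.833 to 0.967, and r was 0.887 to 0.968 without the 2 farthest. In the 10 IL1A+TNF retinas r was 0.755 to 0.990, but Spearman's rho of Mmp8 (0.503), Trem1 (0.649) and Clec4d (0.455) did not pass, with adjusted p of 0.150, 0.0536 and 0.191 (permutation test). Without the 2 farthest retinas r fell to 0.130 for Mmp8, 0.238 for Clec4d and 0.588 for Retnlg, so these relations rest on replicates 1 and 2. The retinas of a group share treatment, batch and normalization.

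**Figure D3:**
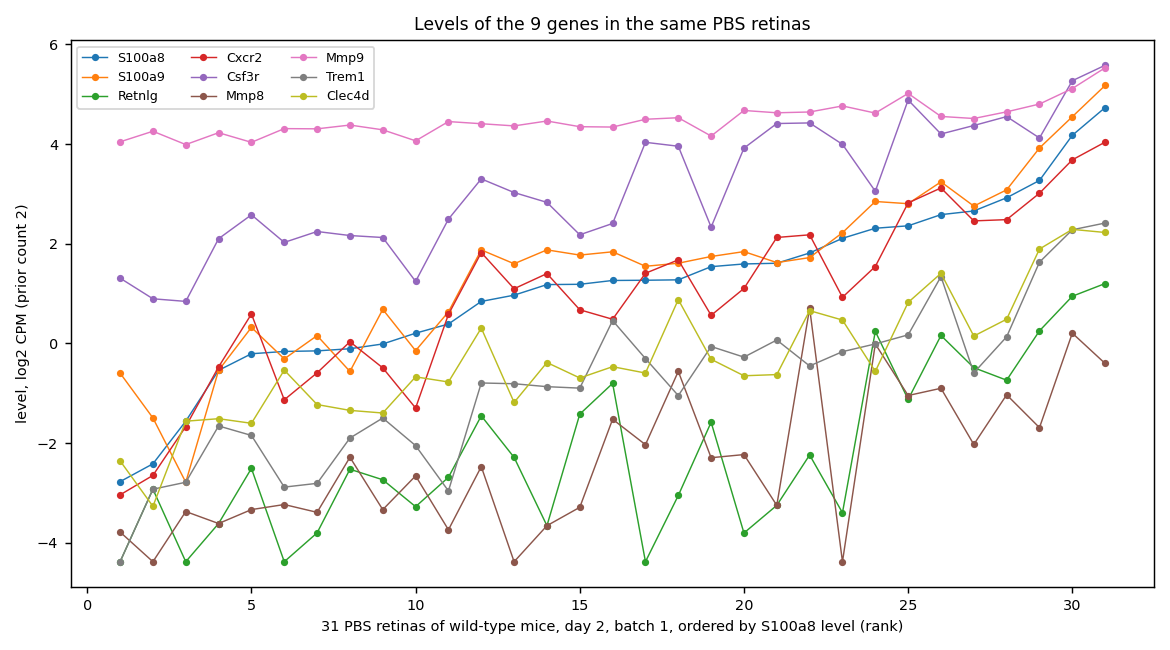
Level of each gene (log2 CPM with a prior count of 2, vertical axis) in the 31 WT PBS retinas of day 2, batch 1, ordered by S100a8 (horizontal axis, rank). The lines of the other genes climb with S100a8, most closely S100a9 (r = 0.948), and Mmp9 climbs over the narrowest range, 15.8 to 46.2 CPM (r = 0.836).

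Markers of other cells were followed in the same retinas, and only some of them varied with S100a8. The summed CPM of 10 monocyte genes ran from 109 to 319 in PBS retinas and from 484 to 1393 in IL1A+TNF retinas, with 449 as the median after TNF. Across the 31 PBS retinas it correlated with S100a8 at r = 0.685 and rho = 0.710 (adjusted p = 0.00018 for each, permutation test, 18 relations chosen after the data were seen), with r = 0.657 without the 2 farthest retinas. Across the 9 IL1A retinas r was 0.860 and rho 0.917 (adjusted p = 0.00345 and 0.0118, exact permutation test), and r was 0.870 without the 2 farthest. Across the 10 IL1A+TNF retinas r was 0.690 and rho 0.139 (adjusted p = 0.0914 and 0.810, permutation test), with −0.032 without the 2 farthest. The 5 erythrocyte genes, a sign of blood in the sample, summed to 10.5 to 32.7 CPM in PBS and 12 to 29.7 CPM in IL1A+TNF retinas, with r = −0.251 and rho = −0.284 in PBS retinas (adjusted p = 0.347 and 0.299, permutation test). The 8 lens and pigment epithelium genes ran the other way in PBS retinas, at r = −0.473 and rho = −0.512 (adjusted p = 0.0351 and 0.0161, permutation test). Their r did not pass in IL1A or IL1A+TNF retinas, at −0.32 and −0.094 (adjusted p = 0.622 and 0.955, permutation test). In IL1A+TNF retinas the 8 microglial genes gave r = −0.770 and rho = −0.855 (adjusted p = 0.0351 and 0.0157, permutation test), with r = −0.615 without the 2 farthest retinas. In PBS and IL1A retinas their r was 0.167 and 0.027 and did not pass (adjusted p = 0.601 and 0.9955, permutation test). The 5 platelet genes gave r = 0.753 and rho = 0.636 in IL1A+TNF retinas (adjusted p = 0.0442 and 0.196, permutation test), with r = 0.585 without the 2 farthest. In PBS and IL1A retinas the platelet r was 0.353 and 0.647 and did not pass (adjusted p = 0.125 for each, permutation test). The 6 surface epithelium genes gave r = 0.001, −0.015 and 0.346 in PBS, IL1A and IL1A+TNF retinas. None passed (adjusted p = 0.9955, 0.9955 and 0.601, permutation test). The part of these cells in the spread of the members was not tested.

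Both eyes of a mouse were compared where both were sequenced. After IL1A+TNF in batch 1, the treated eye was higher in 8 of 8 mice for S100a8, S100a9, Cxcr2, Csf3r, Mmp9 and Trem1, in 7 of 8 for Mmp8 and Clec4d, and in 5 of 8 for Retnlg. After IL1A it was higher in 7 of 7 mice for S100a8, S100a9, Cxcr2, Csf3r and Mmp9, in 6 of 7 for Trem1 and Clec4d, in 5 of 7 for Mmp8 and in 4 of 7 for Retnlg. In WT mice of batch 2 it was higher in 5 of 5 for all 9 genes. The pairing was of eyes of 1 mouse, and no further test was made on these counts.

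**Figure D4:**
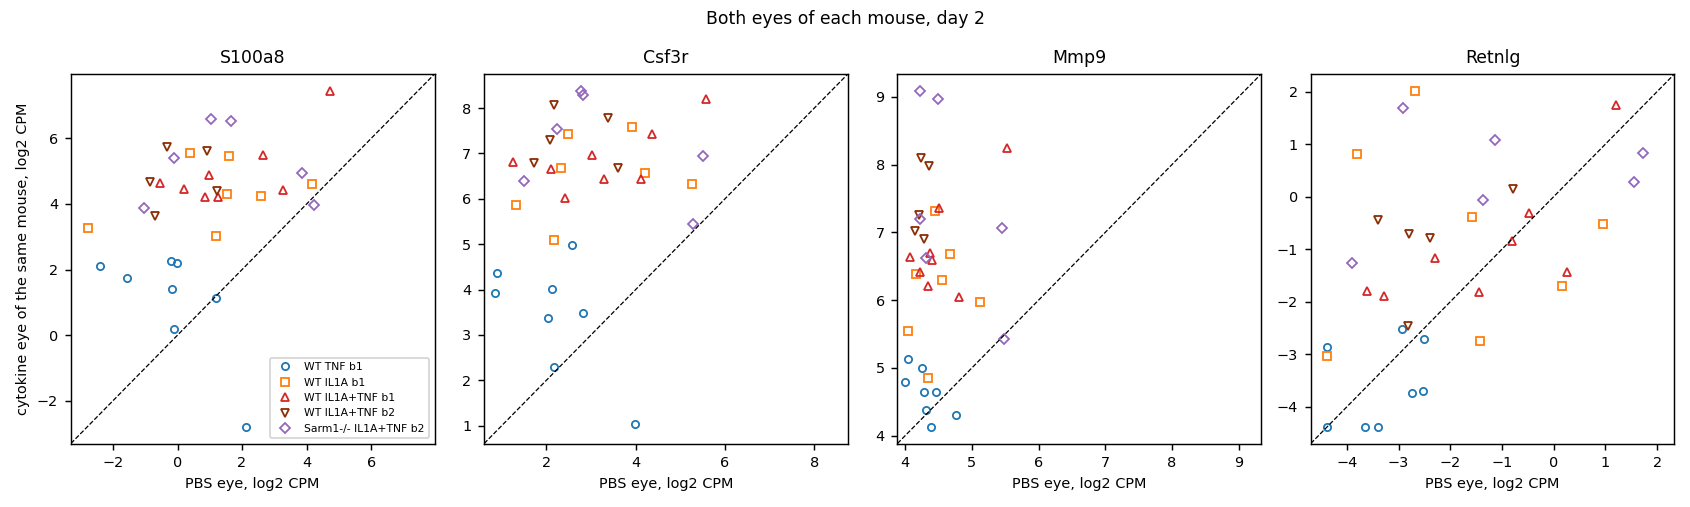
Level in the cytokine eye (vertical axis) against the PBS eye (horizontal axis) of the same mouse at day 2, in log2 CPM with a prior count of 2, for 4 genes, with the dashed line marking equal levels. S100a8, Csf3r and Mmp9 lie above the line in all 8 WT mice of batch 1 given IL1A+TNF, whereas Retnlg does so in 5 of 8.

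PBS retinas were compared over time, 31 at day 2, 7 at day 14 and 6 at day 35. These sets differ in more than day. At day 2 the other eye had IL1A for 7 and IL1A+TNF for 8 of the retinas, and no mouse of the later days was given IL1A. Day 2 PBS retinas with TNF in the other eye had medians of 0.864 CPM of S100a8 and 4.38 CPM of Csf3r (range 1.75 to 15.9). The part of the other eye in the differences over time was not tested. By day 14 5 of 9 genes were lower than at day 2, where 10.5% of all tested genes were, and by day 35 7 of 9, where 17.4% were. At day 14 these were Cxcr2, Csf3r, Mmp8, Trem1 and Clec4d. At day 35 they were S100a8, S100a9, Cxcr2, Csf3r, Mmp8, Trem1 and Clec4d. None was fully separated at day 14, where 0.681% of all tested genes were, and Csf3r and S100a9, 2 of 9, were at day 35, where 3.30% were. At day 14 the count depended on the method: edgeR and DESeq2 called 9 of 9, and limma without the low-count filter 8 of 9. Within day 14 or day 35 only Csf3r and Mmp9 passed the low-count filter. The other 7 genes passed it here through the day 2 retinas, where they were higher. For them a call of lower was favoured in advance, so the shares over all genes are no test of them.

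S100a8 fell from a median of 2.35 CPM at day 2 to 0.0347 CPM at day 14 (range 0 to 0.253) and 0.0121 CPM at day 35 (range 0 to 0.118), where 3 of 6 retinas had no count. Its differences were −5.17 at day 14 (95% interval −9.02 to −1.33, FDR 0.0564 from limma) and −6.08 at day 35 (SE 2.17, FDR 0.0262 from limma). At day 14 it did not pass, with a log2 fold change larger in size than several that did, and edgeR (FDR 5.58e-05) and DESeq2 (FDR 5.91e-13) called it. Cxcr2 differed by −6.20 at day 14 (FDR 0.0198) and −5.83 at day 35 (FDR 0.0291), both from limma.

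Csf3r was detected in every retina and so gives the clearest view of the fall. Its PBS levels were 1.75 to 47.8 CPM (median 8.10) at day 2, 0.660 to 2.34 CPM (median 1.39) at day 14 and 0.594 to 0.995 CPM (median 0.727) at day 35. Day 35 lay wholly below day 2. The differences were −2.79 (SE 0.88, FDR 0.0204) and −3.56 (SE 1.14, FDR 0.0129), both from limma. Trem1 had 0 counts in all 6 PBS and all 9 TNF retinas of day 35, so its pooled day 2 PBS level was at least 71.1-fold higher than the floor of 3 counts allows in the PBS group of day 35.

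Mmp9 did not move in the same way. It was at 15.3 to 21.99 CPM (median 17.1) at day 14 and 17.7 to 22.3 CPM (median 20.5) at day 35, near its day 2 median of 21.8 CPM. Its differences were −0.33 (FDR 0.0615) and −0.14 (FDR 0.436), both from limma, and at day 14 edgeR (FDR 0.0372) and DESeq2 (FDR 0.0205) called it. Retnlg at −2.52 (FDR 0.0659) and −2.53 (FDR 0.0618) did not pass limma's threshold, with 4 counts in all in the 6 PBS retinas of day 35.

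TNF and PBS retinas were compared at day 14 and day 35 for Csf3r and Mmp9 alone, because the other 7 genes were under the low-count filter. The 2 were 0 of 2 called at each day, where 0.00% of all tested genes were, and 0 of 2 at an unadjusted p under 0.05 or by edgeR and DESeq2. At day 14 the values were 0.13 for Csf3r (SE 0.22) and −0.03 for Mmp9 (SE 0.08). At day 35 they were 0.30 for Csf3r (SE 0.20) and −0.04 for Mmp9 (SE 0.06). For the other genes, S100a8 had 7 counts in the 6 TNF retinas of day 14 and 10 counts in the 9 of day 35, and Retnlg had 0 counts in all 6 TNF retinas of day 14. The change in the TNF effect from day 2 to day 14 or 35 was called for 0 of 9 genes by limma, edgeR and DESeq2, where 0.00% of all tested genes were. Its limma values ran from −1.28 to 0.54 at day 14 (SE up to 3.91) and from −1.19 to 1.83 at day 35 (SE up to 3.66). With errors of this size, the lack of a call does not show that the TNF effect stayed the same.

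In the Sarm1 experiment, IL1A+TNF retinas of both genotypes were compared with PBS retinas at day 2. In WT mice of both batches 9 of 9 genes were higher, where 27.8% of all tested genes were, with log2 fold changes from 1.65 (Retnlg) to 4.09 (S100a8). In Sarm1-/- mice 9 of 9 were higher, where 21.3% of all tested genes were, from 1.90 (Retnlg) to 3.93 (Csf3r). The WT batch 2 retinas were separated fully for 8 of 9 genes, all but Retnlg, where 11.5% of all tested genes were. In Sarm1-/- mice 0 of 9 were, where 2.89% of all tested genes were. The 5 erythrocyte genes summed to 19.6 to 93.4 CPM in the Sarm1-/- IL1A+TNF retinas and 15.4 to 32.4 CPM in the Sarm1-/- PBS retinas, with 3 of 5 called higher, and their part in these results was not tested.

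S100a8 in the 6 WT IL1A+TNF retinas of batch 2 was at 95.9, 48.8, 52.9, 12.3, 20.97 and 25.6 CPM, and in the 5 WT PBS retinas at 1.83, 0.744, 0.563, 2.30 and 0.502 CPM. In Sarm1-/- mice the IL1A+TNF retinas were at 15.5, 30.7, 42.0, 96.6, 92.5 and 14.5 CPM and the PBS retinas at 18.7, 14.3, 0.872, 1.98, 3.07 and 0.435 CPM. PBS replicates 1 and 2 of the knockout stood apart, above 2 of the treated retinas in the first case, and both were in the top 2 for 9 of 9 genes. The treated eye was higher than the PBS eye in 5 of 6 Sarm1-/- mice, by −0.27 to 5.57 on the log2 scale. Without PBS replicate 1 the fitted S100a8 difference was 4.43, and without PBS replicate 2 it was 4.23, against 3.76 with both (SE 0.67, FDR 7.71e-06 from limma).

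Csf3r in Sarm1-/- retinas was at 43.8, 122.5, 186.2, 333.8, 311.6 and 83.6 CPM after IL1A+TNF and at 38.8, 45.3, 4.70, 6.79, 7.01 and 2.78 CPM after PBS. The difference was 3.93 (SE 0.52, FDR 2.76e-08 from limma). Treated replicate 1 lay below PBS replicate 2, the only crossing. Retnlg, at 1.90 (SE 0.79, FDR 0.0422 from limma), was not called in 10 of the fits that left out 1 retina: without PBS replicate 4 of the knockout it was 1.27 (FDR 0.213), edgeR gave 0.13 (FDR 0.924), DESeq2 0.065 (FDR 0.968) and the fixed block 0.56 (FDR 0.732). Mmp8, at 3.10 (SE 0.82, FDR 0.00129 from limma), was not called by DESeq2 (2.03, FDR 0.0620).

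Genotypes were not told apart. Sarm1-/- and WT PBS retinas gave 0 of 9 called by limma, edgeR and DESeq2, and 0 at an unadjusted p under 0.05, where 0.0397% of all tested genes were called. The values ran from −0.11 (Csf3r, 95% interval −1.15 to 0.94) to 1.00 (Retnlg, 95% interval −0.58 to 2.57). After IL1A+TNF the genotypes gave 0 of 9 by the same tests, where 14.8% of all tested genes were, from −0.20 (Csf3r) to 1.25 (Retnlg, 95% interval −0.07 to 2.56). Genotype by treatment gave 0 of 9 as well, where 8.75% of all tested genes were, from −0.38 (S100a9, 95% interval −1.85 to 1.09) to 0.48 (Mmp8, 95% interval −1.40 to 2.36). Without PBS replicate 1 or 2 of the knockout 0 of 9 were still called in these 3 comparisons. The sign in genotype by treatment turned for 6 of 9 without either of them (S100a8 to 0.34 without replicate 1 and 0.15 without replicate 2), and between genotypes in PBS retinas it turned for 4 of 9 without replicate 1 (S100a8 to −0.085).

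Sex made no called difference to the IL1A+TNF effect, with 0 of 9 by limma, edgeR and DESeq2 and 0.00% of all tested genes. The values ran from −0.31 (Clec4d) to 1.53 (Mmp8, 95% interval −0.43 to 3.48), with female retinas at 20.1 to 174.7 CPM of S100a8 after IL1A+TNF (n = 6) and male retinas at 18.4 to 25.1 CPM (n = 4).

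Of 21 further neutrophil genes listed beside the members 20 were measured here, and 14 passed the low-count filter at day 2. After IL1A+TNF 13 rose and 1 fell, where 24.9% of all tested genes rose. Trem3, a receptor of the Trem1 family, differed by 3.88 (FDR 3.03e-14) and Fpr2, a formyl peptide receptor, by 3.85 (FDR 1.26e-10), both from limma. Lcn2, lipocalin 2, which reactive astrocytes also make, was at 313 to 827 CPM against 28.6 to 412 CPM in PBS retinas, a difference of 1.99 (FDR 9.96e-07 from limma). Hdc, histidine decarboxylase, which makes histamine, was the 1 that fell, by 1.58 on the log2 scale (FDR 1.84e-12 from limma), and it was named after its value was seen.

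Ly6g, the usual surface marker of mouse neutrophils, was not testable: 18 counts were found over all 31 PBS retinas and 8 over all 10 IL1A+TNF retinas. Mpo, which encodes the granule enzyme myeloperoxidase, was likewise at 33 counts over 31 PBS and 5 over 10 IL1A+TNF retinas. Of 10 genes listed for granules or immature neutrophils 5 were tested. After IL1A+TNF 2 of them rose, where 24.9% of all tested genes did: Chil3 by 3.64 (FDR 1.17e-09) and Prtn3 by 0.93 (FDR 1.93e-06), both from limma. After TNF 0 of 14 further neutrophil genes and 0 of 5 granule genes were called, where 0.655% of all tested genes were.

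Signals that recruit neutrophils and the partners of the members were counted the same way. Of 10 ligands and cytokines 7 were tested and 2 rose after IL1A+TNF, a share near the 24.9% of all tested genes: Cxcl1, a CXCR2 ligand, by 1.52 (FDR 0.00174) and Cxcl2, another, by 1.35 (FDR 0.0180), both from limma. Csf3, the ligand of Csf3r, was at 0.261 to 0.909 CPM against 0.189 to 5.28 CPM in PBS retinas and differed by −0.14 (FDR 0.677 from limma). Of 20 partners 18 rose, among them Clec4n by 4.29 (FDR 5.41e-15), Ncf1, a subunit of the phagocyte oxidase, by 3.11 (FDR 7.34e-20), Clec4e, the lectin that pairs with CLEC4D, by 3.05 (FDR 6.95e-10) and Selp, the endothelial P-selectin, by 2.94 (FDR 1.17e-08), all from limma. Timp1, the inhibitor of MMP9, rose by 1.85 (FDR 7.52e-11 from limma).

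The same lists were counted in the other comparisons. After IL1A, where 12% of all tested genes rose, 13 of the 14 further neutrophil genes rose and 1 fell, 3 of 5 granule genes rose, and 18 of 20 partners rose. Of the 7 recruiting signals 1 rose after IL1A, Cxcl1 by 1.89 (FDR 0.000485 from limma). After TNF, where 0.655% of all tested genes were called, 0 of 7 recruiting signals and 2 of 20 partners were called. In Sarm1-/- mice after IL1A+TNF, where 21.3% of all tested genes rose, 15 of 16 further neutrophil genes rose and 1 fell, 3 of 6 granule genes rose, 4 of 8 recruiting signals rose and 14 of 20 partners rose. In PBS retinas 4 of 11 further neutrophil genes, 5 of 7 recruiting signals and 17 of 20 partners were lower at day 14 than at day 2, against 10.5% of all tested genes, and 7, 6 and 19 were lower at day 35, against 17.4%. Lcn2 was at 2.28 to 4.33 CPM in PBS retinas of day 35, a difference of −5.05 from day 2, and 2 of the 11 further neutrophil genes were higher at each of the later days.

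Genes of other cells also differed after IL1A+TNF at day 2, where 24.9% of all tested genes rose and 4978 of 19548 fell. Of 10 monocyte genes 9 rose, of 8 microglial genes 2 rose and 3 fell, and of 5 erythrocyte genes 0 were called. Of 4 platelet genes 2 rose and 1 fell, of 5 genes of surface epithelium 1 rose and 3 fell, and of 8 lens and pigment epithelium genes 3 fell. Of 3 T cell genes 1 rose, of 3 B cell genes 0 were called, and Siglecf, the 1 mast cell and eosinophil gene tested and named for that alone, rose by 4.20. Of 9 genes of retinal neurons and glia 8 fell, and their summed level was 16833 to 33840 CPM after IL1A+TNF against 29769 to 48177 CPM after PBS. In PBS retinas the monocyte genes were lower at day 14 for 7 of 10 and at day 35 for 9 of 10. The microglial genes were lower for 7 and 8 of 8. Over all tested genes 10.5% were lower at day 14 and 17.4% at day 35. The part of these cells in the members' values was not tested.

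Genes that followed the members closely were found over all 81 retinas of day 2. Spearman's rho with the mean of the members was 0.967 for Il1b, 0.963 for Il1r2, 0.958 for Ccr1, 0.958 for Cd300ld, 0.958 for Hp, 0.954 for Slfn2 and 0.953 for ENSMUSG00000089672, out of 19539 genes compared. With the group means removed, rho was 0.942 for Ccr1, 0.929 for B430306N03Rik, 0.926 for Slfn2 and 0.926 for Il1r2. These are descriptions of likeness over retinas that share treatments.

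Scaled per kilobase of exon, the levels after IL1A+TNF in batch 1 were highest for S100a9, at 89.99 CPM per kilobase, and S100a8, at 67.3, followed by Csf3r at 39.6, Mmp9 at 35.6, Cxcr2 at 11.7, Clec4d at 5.38, Trem1 at 2.06, Retnlg at 1.16 and Mmp8 at 0.521. In PBS retinas at day 2 the order began with S100a9 at 10.1, Mmp9 at 6.48 and S100a8 at 5.74. The SD between retinas was as large as these means for S100a8 and S100a9 (72.6 and 93.2 after IL1A+TNF), and the genes were not tested against each other.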

How the data were processed

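The deposited values were raw counts per gene, made by the authors with STAR 2.7.9a and featureCounts of Subread 2.0.1 on mm10, per the labels, from 150 bp paired reads of polyA-selected libraries. The strand setting was not given in the sources used here. Members and lists were chosen with earlier results of these data known. Genes were filtered with filterByExpr (minimum count 10, total 15, proportion 0.7), scaled by TMM (edgeR 4.0.16) and fitted with limma 3.58.1 (voom, sex as covariate, mouse as a random block by duplicateCorrelation in 2 rounds, without the block for PBS retinas over time) in R 4.3.3. The Sarm1 fit added batch. Levels on the log2 scale had a prior count of 2, and summed CPM a pseudocount of 0.1. The FDR threshold was 0.05, adjusted over all genes tested, and 95% intervals were normal intervals around the fitted value. Named were all members, at most the 4 largest called changes per list in IL1A+TNF against PBS, and Ly6g, Mpo, Lcn2, Cxcl1, Cxcl2, Csf3, Timp1 and Sarm1 whatever their values; 1 gene that this rule names is not reported here. DESeq2 1.42.0 and edgeR's quasi-likelihood test were alternatives. Fits were tested on simulated data. Correlations used exact permutations at 9 retinas and 100000 permutations otherwise. Total counts ranged from 30014757 to 79064488, and floors at a count of 0 cover counting error only.

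The pairing was by mouse, whose eyes were matched through the sample titles. Replicate numbers themselves pair nothing across groups. The within-mouse correlation in the day 2 fit was 0.0515.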

Additional observations from a re-analysis of the deposited data

Results flagged for a closer look

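The sets of a gene and a group of 4 to 10 retinas numbered 96. No chance rate is given for them, because many hold few counts and the genes vary together between retinas. In 11 sets a retina's gap to its neighbour was large against the range of the group. Of these, 4 were 1 TNF retina of day 2, replicate 6, at the low end: S100a8 at 0.09617 CPM (3 counts, with the next retina at 1.097 CPM), S100a9 at 0.1282 CPM, Cxcr2 at 0 CPM and Clec4d at 0.06411 CPM. The values of TNF replicate 6 stood beside the result for TNF in the main text, where leaving it out gave no call.

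The other 7 rested on few counts in most cases. S100a8 was highest in TNF replicate 2 of day 14 at 0.1384 CPM (5 counts). Retnlg was lowest in WT IL1A+TNF replicate 4 of batch 2 at 0.1338 CPM (7 counts). Csf3r was lowest in TNF replicate 8 of day 35 at 0.4702 CPM (15 counts, next retina at 0.7953 CPM). Mmp8 was highest in PBS replicate 1 of day 14 at 0.02806 CPM (1 count), in TNF replicate 1 of day 14 at 0.02398 CPM (1 count), in PBS replicate 1 of day 35 at 0.1211 CPM (5 counts) and in TNF replicate 5 of day 35 at 0.1683 CPM (6 counts).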

How the results depend on the processing

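Of 2341 member values under alternatives, 2166 kept their direction and their side of the threshold, 47 lost the call (31 of them Retnlg and 8 Mmp8, none Csf3r), 20 gained one, and 108 changed sign, none of them a called member. Of 295 counts of called members, 286 stayed within 1.5 times the main count. The alternatives include 78 fits that left out 1 retina, which gave 170 of these counts. All 9 counts that moved came from the other alternatives, the changes of method or model.

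The counts that moved were these, and the causes were not tested. With mouse as a fixed replicate block the pairing left 5 members called for IL1A, 2 for IL1A+TNF against TNF and 0 for IL1A+TNF against IL1A. The 8 it left for IL1A+TNF against PBS stayed within 1.5 times the main count and are not among the counts that moved. For IL1A+TNF against IL1A, dropping the sex term gave 2. DESeq2 called 1 member for TNF at day 2. For PBS day 14 against day 2 the count was 8 without the filter, 9 with edgeR, 9 with DESeq2 and 8 with edgeR without the filter, the last chosen after the data were seen.

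Signs changed for uncalled values. For Retnlg, IL1A+TNF against IL1A was 0.063 without the sex term. With the fixed block S100a9 was −0.00015 and Cxcr2 −0.048 in that comparison, and Csf3r after TNF at day 14 was −0.059. For Sarm1-/- against WT, Csf3r in PBS retinas was 0.86 with edgeR, 0.90 with DESeq2, 0.17 without the sex term and 0.62 in batch 2 alone, and after IL1A+TNF 0.064 with edgeR and 0.077 with DESeq2. Mmp8 in genotype by treatment was −0.33 with edgeR, −0.38 with DESeq2 and −0.30 in batch 2 alone.

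With 1 retina left out, the called members numbered 8 to 9 for IL1A+TNF and 7 to 9 for IL1A. For these comparisons only treated retinas of batch 1 at day 2 were left out. In the Sarm1 fit only batch 2 retinas, of either genotype, were left out, and no batch 1 retina. There the called members numbered 8 to 9 in Sarm1-/- mice and 9 to 9 in WT mice of both batches. Csf3r and Mmp9 after TNF at day 14 ran from −0.045 to 0.33 and from −0.11 to 0.055. Csf3r between genotypes ran from −0.61 to 0.17 (PBS) and from −0.38 to 0.073 (IL1A+TNF). In genotype by treatment S100a9 ran from −0.78 to 0.29 and Mmp8 from −0.37 to 1.24. Retnlg in IL1A+TNF against PBS was 0.58 (FDR 0.424) with edgeR, 0.51 (FDR 0.554) with DESeq2, 0.21 (FDR 0.880) with the fixed block, and 1.11 to 1.75 with 1 retina left out.

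The 24 correlations with S100a8 kept their direction. Depth limits Retnlg, Mmp8 and Trem1, each at 0 counts in at least 1 PBS retina of every day in batch 1.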

Other observations

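The 31 PBS retinas of day 2 were also set out by what the other eye of the mouse had received, as a description. S100a8 had a median of 2.86 CPM where the other eye had IL1A (7 retinas), 2.13 CPM where it had IL1A+TNF (8 retinas), 0.864 CPM where it had TNF (8 retinas) and 3.24 CPM where no other eye was among the samples used here (8 retinas). Csf3r was at 5.58, 8.96, 4.38 and 18.8 CPM in the same order. The ranges of the 4 sets overlapped for both genes.

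By sex, S100a8 after IL1A was at 19.9 to 47.4 CPM in 4 female and 8.04 to 24.5 CPM in 5 male retinas.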
